A study of Mus musculus with 4 samples.

Results

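Ptbp1, Lbh, Sectm1a, Ctsd and Alad are 5 genes whose surroundings were among the most widely covered by DNA that was more methylated in hair matrix keratinocytes without Tet2 and Tet3. They were chosen from the authors' deposited table of differential regions for having regions with a mean level at least 20 percentage points higher in the double knockout (gained regions) over about 20% of the gene body plus 5 kb on either side (the window), and they stand for 5 of 21883 protein-coding genes. Hair matrix keratinocytes are the dividing epithelial cells at the base of the follicle that form the hair shaft and inner root sheath. They were sorted from mice at postnatal day 4.5 and profiled by whole-genome bisulfite sequencing, with 2 WT libraries and 2 libraries of the genotype Tet2/Tet3 DKO, Krt14-Cre, in which Cre is driven by the promoter of a keratin of basal epithelial cells. The labels do not say whether WT mice carried the Cre, or whether each library came from its own animal. The table has 1 mean level per group and region, no value per library, no read counts and no p-value, so no difference given here has a replicate check and the depth is unknown. The table calls its groups 1 and 2, and group 1 was read as the WT because its title names the WT first, so all directions depend on this reading. The files hold no expression values, so the labelled cell type was not checked by markers.

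TET enzymes oxidise 5-methylcytosine, which is a step towards its removal, and since 5-hydroxymethylcytosine also resists bisulfite, a level here counts both forms. In mammals, CpG-dense gene starts are usually free of methylation, bodies of expressed genes are mostly methylated, and enhancers often have levels in between. Ptbp1 encodes an RNA-binding protein that represses the inclusion of exons during splicing and is found in most dividing cells. Lbh encodes a small nuclear cofactor of transcription that is a target of Wnt signalling in epithelia and is known for its role in basal progenitors of the mammary gland. Sectm1a belongs to a family of immunoglobulin-like surface and secreted proteins, whose human member is made by epithelial and myeloid cells and binds CD7 on T and NK cells. Ctsd encodes cathepsin D, the aspartic protease of lysosomes, which in epidermis has been linked to the activation of transglutaminase 1 during cornification. Alad encodes aminolevulinate dehydratase, which makes porphobilinogen in the pathway of haem synthesis.

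The sequences at the gene starts are shown first, because the DNA beside them had higher levels without Tet2 and Tet3 while the starts stayed below 10%. RefSeq promoters (GRCm38.p6), each with 250 bases before the start and 50 bases from it, were matched by symbol for 4 of the 5 genes, and Sectm1a had no entry. They are written 5' to 3' on the strand of the gene, with every CpG in capitals. They lie at chr10:79854182-79854481 (plus strand, Ptbp1), chr17:72918055-72918354 (plus, Lbh), chr7:142387778-142388077 (minus, Ctsd) and chr4:62520014-62520313 (minus, Alad).
Ptbp1 promoter: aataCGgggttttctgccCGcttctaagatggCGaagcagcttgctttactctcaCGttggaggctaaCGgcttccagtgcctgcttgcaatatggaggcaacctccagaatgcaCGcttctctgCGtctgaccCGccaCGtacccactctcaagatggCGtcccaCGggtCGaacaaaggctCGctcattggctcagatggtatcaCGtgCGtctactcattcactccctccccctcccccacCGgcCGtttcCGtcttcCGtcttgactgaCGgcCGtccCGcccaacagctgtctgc
Lbh promoter: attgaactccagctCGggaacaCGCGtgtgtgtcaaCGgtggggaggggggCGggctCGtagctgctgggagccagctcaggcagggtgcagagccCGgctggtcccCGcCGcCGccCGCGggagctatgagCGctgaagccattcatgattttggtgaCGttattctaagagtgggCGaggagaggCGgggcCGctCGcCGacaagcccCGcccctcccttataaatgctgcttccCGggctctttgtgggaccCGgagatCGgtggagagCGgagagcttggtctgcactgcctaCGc
Ctsd promoter: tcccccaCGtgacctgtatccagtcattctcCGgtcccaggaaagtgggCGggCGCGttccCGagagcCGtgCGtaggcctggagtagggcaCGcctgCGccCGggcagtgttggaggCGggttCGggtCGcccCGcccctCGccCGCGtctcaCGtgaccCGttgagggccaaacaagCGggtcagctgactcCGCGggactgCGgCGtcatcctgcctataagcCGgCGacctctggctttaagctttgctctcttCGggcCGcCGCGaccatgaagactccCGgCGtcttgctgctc
Alad promoter: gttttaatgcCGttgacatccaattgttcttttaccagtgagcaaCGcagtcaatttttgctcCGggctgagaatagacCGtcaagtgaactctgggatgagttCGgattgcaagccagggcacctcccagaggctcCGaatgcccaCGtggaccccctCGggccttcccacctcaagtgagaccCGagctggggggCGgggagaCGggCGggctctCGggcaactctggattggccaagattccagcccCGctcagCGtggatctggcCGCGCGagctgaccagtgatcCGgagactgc
These windows hold 22 CpGs at Ptbp1, 25 at Lbh, 33 at Ctsd and 19 at Alad, against a median of 7 over 32851 RefSeq promoters of the same length. Each of the 4 lies whole within a listed region below 10% in both genotypes, which holds for 12.6% of all these promoters. A second Alad start at chr4:62519860-62520159, with 33 CpGs, lies in the same region. Of 4 letter motifs searched on both strands, GGGCGG, the core bound by Sp and Klf factors, occurs in all 4 windows (35.7% of all promoters hold it), and its letters include a CpG. CACGTG, an E-box whose letters also include a CpG, occurs in those of Ptbp1, Ctsd and Alad (7.15% of all promoters). CCAAT occurs in those of Ptbp1 and Alad (37.4%), and TATAAA in that of Lbh (13.6%). The shares are over all promoters and not over those with as many CpGs, so they show no excess of a motif. The matches are of letters only, not sites of binding.

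The windows of the 5 genes held 80 listed regions, of which 41 were gained regions and none was 20 points or more lower in the DKO. Of all 484555 listed regions, 22.9% gained at least 20 points and 0.0896% lost as much, but the genes were chosen for their gains, so the count of 41 is a description. The 41 regions add up to 29528 bp inside the windows and 981 cytosine positions, in which the strands of a CpG are mostly counted apart. Their median level was 41.7% in the WT (range 7.53 to 64.3) and 75.4% in DKO cells (35.6 to 89.05, authors' deposited table). The gains ran from 24.6 to 54.1 points, and each was 5.83 to 15.2 times the authors' own spread estimate for its region, a value that neighbouring regions can share and that entered the listing. Of the 41, 12 rest on fewer than 10 positions and 4 on a single position.

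The other listed regions in these windows fell into 2 kinds with few levels in between. There were 7 regions below 10% in both genotypes, with WT levels of 2.07 to 4.55% and DKO levels of 2.52 to 4.86% (authors' deposited table). Of the remaining 32, 31 had a WT level above 75%, and the exception was a region of 108 bp inside Ptbp1 at 14.0% in WT cells and 21.4% in DKO cells (authors' deposited table). No region of the 5 windows had a gain between 7.44 and 24.6 points, an interval that holds 10.3% of all listed regions, and the DKO mean was lower than the WT mean in 7 of the 80 regions, by at most 4.13 points, at Ctsd. The authors listed only regions whose statistic passed a bound, so stretches with no listed region have no value here. The bounds were unequal, as no listed region has a statistic between -4.024 and 1.533. In the 5 windows every gained region has a negative statistic and every other region a positive one. How far the 2 kinds and the empty interval of gains come from this listing was not tested. Listed regions of any kind covered from 25.7% of the window at Sectm1a to 54.6% at Alad.

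**Figure D1:**
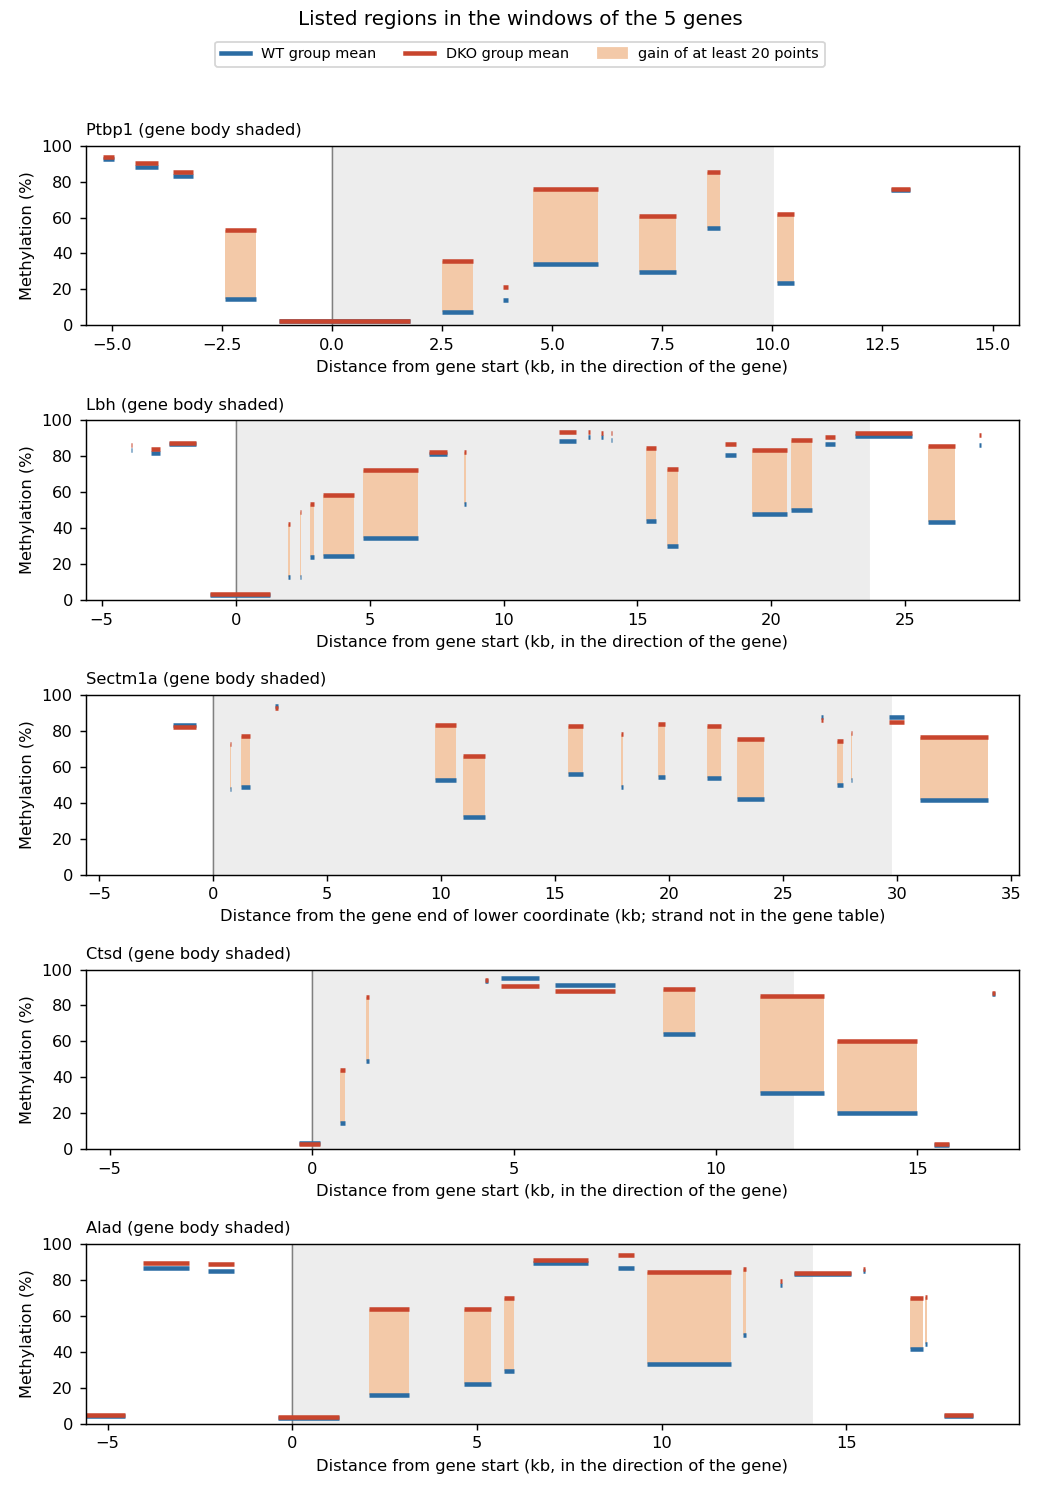
Each panel shows the listed regions of 1 gene by distance from the gene start in kb (for Sectm1a, from the gene end of lower coordinate) and by methylation level in percent, with a blue line for the WT group mean, a red line for the DKO group mean, orange fill between them for gains of at least 20 points, and the gene body in grey. At Ptbp1, Lbh, Ctsd and Alad the start lies in a region below 10% in both genotypes, with gained regions on its downstream side, while no region of Sectm1a lies below 32.1% in the WT.

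Alad had the highest mean gain of the 5 genes over gained regions, but the lowest over all listed regions, 16.9 points. The 7 gained regions of Alad covered 19.7% of the window and those inside the gene 31.2% of its body alone, with length-weighted means of 27.9% in WT cells and 74.7% in DKO cells and a mean gain of 46.8 points. Of the gained bases, 92.8% lay inside the gene, which is on chromosome 4 from 62505984 to 62520063 and runs towards lower coordinates. The largest region, of 2295 bp and 98 positions at 62508172 to 62510466, starts 9597 bp into the gene and averaged 33.4% in WT cells and 84.6% in DKO cells (authors' deposited table; gain 51.2 points, spread estimate 3.89). Nearer the start, 3 more regions lay in a row. The region at 62516901 to 62517995 averaged 15.8% and 64.1%, that at 62514684 to 62515424 averaged 22.3% and 63.7%, and that at 62514073 to 62514331 averaged 29.5% and 69.9% (authors' deposited table). The WT level was thus higher the farther a region of this row lay from the start, and the DKO levels of the 3 lay between 63.7% and 69.9%. Between this row and the large region, 1938 bp of listed DNA stayed above 86% in both genotypes.

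Ctsd held the largest difference in level among the 41 regions, and it lay across the far end of the gene. The gene is on chromosome 7 from 142375910 to 142387827 and runs towards lower coordinates, so this end is where its transcript stops. The region at 142375133 to 142376734, of 1602 bp and 46 positions, averaged 31.1% in WT cells and 85.2% in DKO cells (authors' deposited table; gain 54.1 points, spread estimate 3.56). Beyond it, a region of 1996 bp at 142372833 to 142374828 averaged 20.3% and 60.2% (authors' deposited table), 1081 bp outside Ctsd and across an end of the neighbouring gene Ifitm10. Only 38.8% of the gained bases of this window lay inside Ctsd, the smallest share of the 5 genes. The middle of the gene stayed high, with 95.1% in WT cells and 91.0% in DKO cells at 142382202 to 142383148 and 91.4% and 88.2% at 142380308 to 142381812 (authors' deposited table). Near the start, a region of 125 bp at 142387002 to 142387126 went from 14.4% to 43.9%, the lowest DKO level among the gained regions of Ctsd, and a single position at 142386478 had levels of 48.9% and 84.5% (authors' deposited table). All 5 gained regions together covered 20.7% of the window, with mean levels of 31.8% in WT cells and 73.8% in DKO cells.

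Ptbp1 had gained regions on both sides of a wide unmethylated start. The gene is on chromosome 10 from 79854432 to 79864435 and runs towards higher coordinates. Its start lies in a region of 2988 bp and 371 positions, at 79853224 to 79856211, with 2.24% in WT cells and 2.52% in DKO cells (authors' deposited table). Upstream, a gained region that ends 1717 bp before the start averaged 14.6% and 53.0% (authors' deposited table), and it lies over the lncRNA gene E130317F20Rik. Downstream, the first gained region, at 79856934 to 79857639, averaged 7.53% in WT cells and 35.6% in DKO cells (authors' deposited table), and these were the lowest WT level and the lowest DKO level among the 41 regions. The largest, of 1475 bp and 78 positions at 79858995 to 79860469, averaged 34.2% and 75.9% (authors' deposited table; gain 41.7 points, spread estimate 3.34). Toward the far end, regions at 79861401 to 79862244 and 79862938 to 79863249 were at 29.6% and 54.1% in WT cells and at 60.8% and 85.2% in DKO cells (authors' deposited table). A last region, of 5 positions, began 92 bp beyond the gene and averaged 23.5% and 61.7% (authors' deposited table; spread estimate 5.24, the widest of the 41). The 6 gained regions covered 22.3% of the window, and their mean DKO level of 62.4% was the lowest of the 5.

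Lbh showed 2 stretches of gains inside the gene, one after the start and one towards its end, with a single gained position between them. The gene is on chromosome 17 from 72918305 to 72941946 and runs towards higher coordinates. From 1945 to 6814 bp after the start, 5 gained regions followed each other. Their WT levels were 12.5%, 12.6%, 24.2%, 24.6% and 34.5% in this order, and their DKO levels 42.1%, 48.7%, 53.3%, 58.2% and 72.1% (authors' deposited table). The DKO means were thus in increasing order away from the start, while the first and second WT means, and the third and the next, differed by less than their spread estimates of 3.72 to 3.87 points. The gain stayed between 29.1 and 37.6 points. The last of the 5, at 72923046 to 72925119, was the longest in this window (2074 bp, 56 positions). It was followed by a region at 81.3% and 82.5% and by a gained region of a single position, 8527 bp after the start, at 53.3% and 82.3% (authors' deposited table). From 12086 to 14038 bp after the start 4 regions lay near 90% in both genotypes. In the second stretch, 4 regions between 72933615 and 72939815 had WT levels of 29.9 to 50.3% and DKO levels of 72.9 to 88.8% (authors' deposited table). The largest gain of the gene, 43.0 points over 12 positions at 72934401 to 72934823, was in this stretch. One more gained region lay 2194 bp beyond the gene, at 43.5% in WT cells and 85.5% in DKO cells (authors' deposited table). The 11 gained regions, 4 of them with fewer than 10 positions, covered 22.2% of the window with mean levels of 37.7% and 75.2%.

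Sectm1a differed from the other 4 genes in having no listed region below 10% in its window. Listed regions covered only 25.7% of this window and the gene start was not located, so unmethylated DNA may lie where there is no value. The gene is on chromosome 11 from 121067395 to 121097153, and its strand was not given in the gene table used. Its 12 gained regions had the narrowest ranges, from 32.1 to 55.9% in WT cells and from 66.2 to 83.9% in DKO cells, and all 12 reached at least 60% in DKO cells. The longest gained region of the 5 genes, of 2982 bp and 68 positions at 121098419 to 121101400, lay 1265 bp outside the gene at its end of higher coordinate and averaged 41.7% in WT cells and 76.4% in DKO cells (authors' deposited table; gain 34.7 points, spread estimate 3.28). Inside the gene, the region at 121078371 to 121079310 had the lowest WT level, 32.1%, with 66.2% in DKO cells, and a region of 1184 bp at 121090375 to 121091558 averaged 41.9% and 75.4% (authors' deposited table). Over gained regions the mean gain of 32.1 points was the lowest of the 5 genes, while over all listed regions it was the highest, 25.9 points. Coverage was 21.0%. No listed region lay between 121070251 and 121077112, so this part of the gene has no value.

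**Figure D2:**
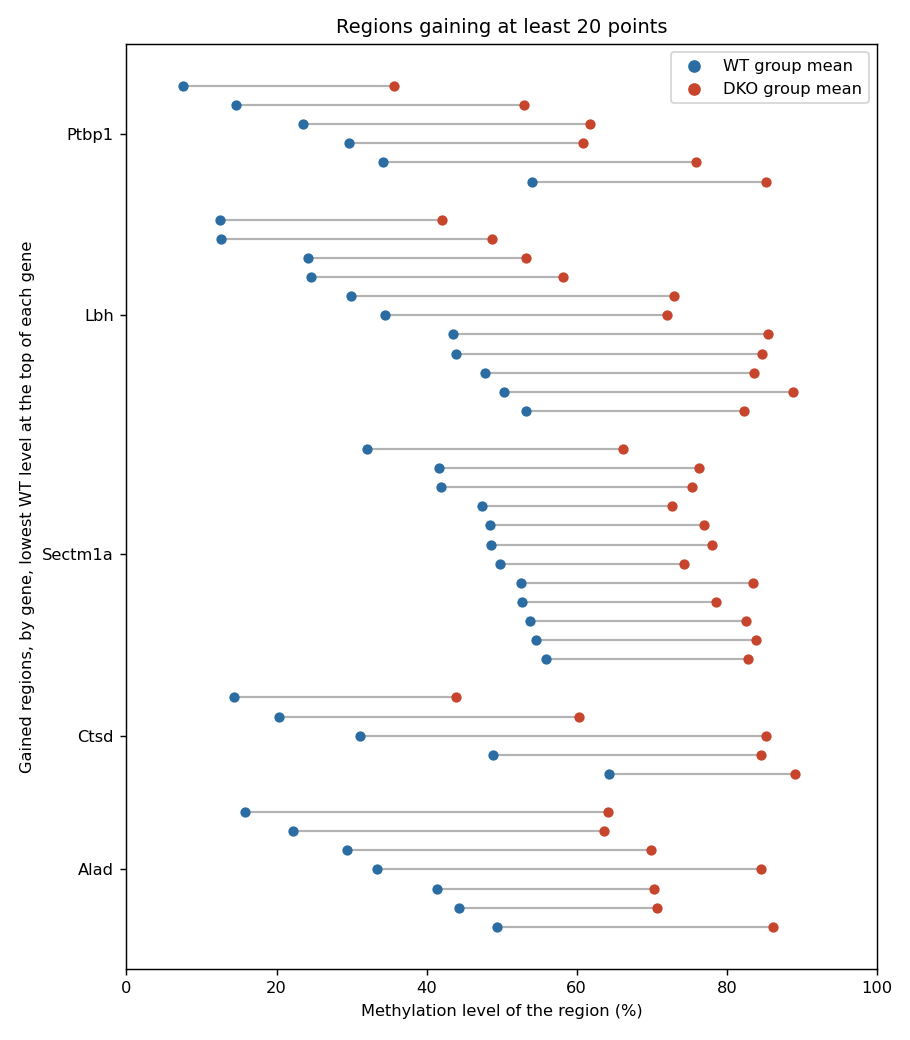
Each row is 1 of the 41 gained regions, grouped by gene and ordered by WT level, and the x axis is the methylation level in percent, with a blue point for the WT group mean and a red point for the DKO group mean. Sectm1a spans 32.1 to 55.9% in the WT, while Ptbp1, Lbh, Ctsd and Alad each have a region below 16% in the WT.

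At the gene ends, all 4 starts with a known position stayed unmethylated while the opposite ends differed between the genes. The start of Lbh lay in a region of 2241 bp at 2.57% in WT cells and 3.14% in DKO cells, that of Ctsd in 1 of 524 bp at 3.26% and 2.96%, and that of Alad in 1 of 1665 bp at 3.14% and 3.61% (authors' deposited table). These regions are CpG-rich, with 94 to 191 positions per kb over the 4 starts, against a median of 39.4 in the gained regions. Within 1 kb of these starts the only other listed region was at Ctsd. It lay inside the gene at 142387002 to 142387126 and averaged 14.4% in WT cells and 43.9% in DKO cells (authors' deposited table). At the far ends, Lbh averaged 91.0% and 92.9% and Alad 83.6% and 83.7% (authors' deposited table), so neither differed by more than 2 points, while Ctsd had its gain of 54.1 points there and Ptbp1 a gain of 38.2 points just beyond. At Sectm1a, the end of higher coordinate lay in a region at 87.6% in WT cells and 85.1% in DKO cells, and within 1 kb of the end of lower coordinate 1 region lay at 83.5% and 82.2%, and another, of 4 positions, averaged 47.4% and 72.7% (authors' deposited table).

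The gained regions after the starts of Ptbp1, Lbh, Ctsd and Alad were set beside those of all genes whose start lies in a listed region below 10% in both genotypes, 1519 genes with these 4 included. Over these genes the median WT level of gained regions inside the gene was 35.2% within 2 kb of the start (482 regions), 40.4% from 2 to 4 kb (624 regions), 43.6% from 4 to 6 kb (338 regions), 44.2% from 6 to 8 kb (267 regions) and 46.0% from 8 to 10 kb (222 regions). The median DKO level was 64.9%, 74.7%, 77.1%, 76.2% and 78.8% in the same bins. Within 2 kb, the 3 regions of the 4 genes ran from 12.5 to 48.9% in WT cells and from 42.1 to 84.5% in DKO cells, on both sides of these medians. In the bin from 2 to 4 kb, the 5 regions of these genes were at 7.53 to 24.6% in WT cells and 35.6 to 64.1% in DKO cells, below the lower quartile of 29.3% and the DKO median of all genes. From 4 to 6 kb, the 4 regions were at 22.3 to 34.5% in WT cells and 63.7 to 75.9% in DKO cells. From 6 to 8 kb, the single region was at 29.6% in WT cells and 60.8% in DKO cells. From 8 to 10 kb, the 3 regions were at 53.3 to 64.3% in WT cells and 82.3 to 89.05% in DKO cells, above both medians. The regions from 2 to 8 kb after the start thus lay below the medians of both genotypes, and those from 8 to 10 kb above them. This is a description without a test, and neither part covers all 4 genes. From 2 to 8 kb the regions were of Ptbp1, Lbh and Alad, with none of Ctsd. Most of those from 2 to 4 kb were neighbouring regions of Lbh, and the single region from 6 to 8 kb was of Ptbp1. From 8 to 10 kb they were of Ptbp1, Lbh and Ctsd, with none of Alad. The last bin rests on 3 regions, of which that of Lbh is a single position. Regions were binned by their centre, so the largest of Alad (33.4% in WT cells), which starts at 9597 bp, falls beyond 10 kb.

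**Figure D3:**
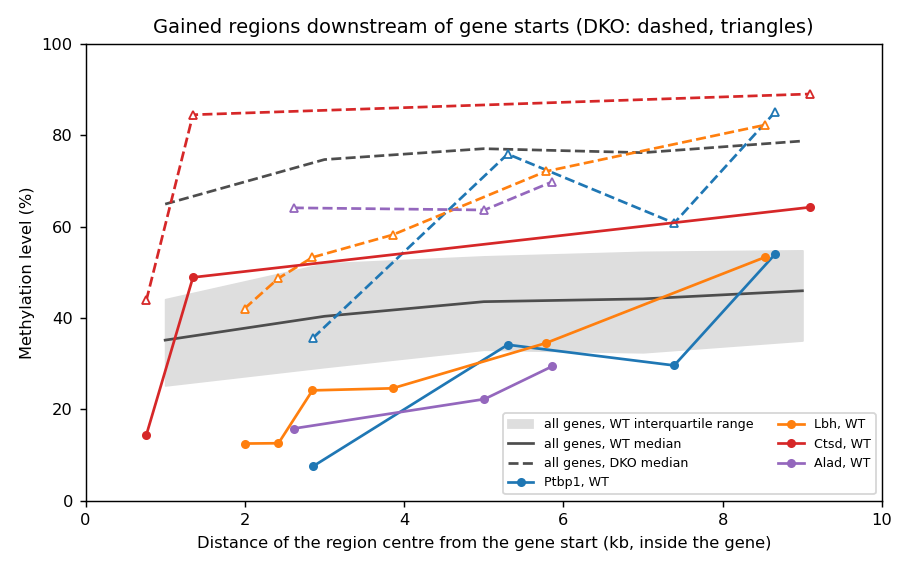
Methylation level in percent against the distance of the centre of a gained region from the gene start in kb, inside genes whose start is unmethylated in both genotypes. Grey lines are medians over the gained regions in each bin of 2 kb (solid for the WT with its interquartile range shaded, dashed for the DKO). Depending on the bin, these regions come from 177 to 484 of the 1519 genes. Coloured points are the regions of Ptbp1, Lbh, Ctsd and Alad (filled circles for the WT, open triangles for the DKO). Between 2 and 4 kb the WT points lie at 7.53 to 24.6%, under the shaded range.

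The genes were chosen for covered DNA, so the length of their gained regions is given as a description only. Their median length was 635 bp, against 345 bp over all 111028 gained regions, and 11 of 41 (26.8%) were at least 1 kb long, against 9.39%. WT levels under 20% were found in 6 of the 41 (14.6%) and in 4.02% of all gained regions. The density of cytosine positions was alike, with a median of 39.4 per kb in the 41 and 37.3 per kb in all. A DKO level of at least 60% was reached by 34 of the 41 (82.9%) and by 88.5% of all gained regions.

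In the order of all protein-coding genes by window coverage, Ptbp1 held rank 34, Lbh 37, Sectm1a 54, Ctsd 58 and Alad 77 of 21883, so these genes are near the top but not the most covered. With the gene body alone the ranks were 94, 145, 375, 584 and 105 in the same order. The median over all genes was 1.29% and the mean 2.67%, and 64.4% of all windows held at least 1 gained region. Windows at or above the coverage of Alad were 0.352% of all (77 genes). The next gene above Alad was Gm10277 at 19.72% and the next below was Cldn4, a tight junction protein gene, at 19.60%. Genes above Ptbp1 with windows of 20 kb or more, as all 5 genes here have, included Klf5 (24.4%), an epithelial transcription factor, and Krt72 (22.3%), a keratin of the inner root sheath. Both were named after their values were seen.

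**Figure D4:**
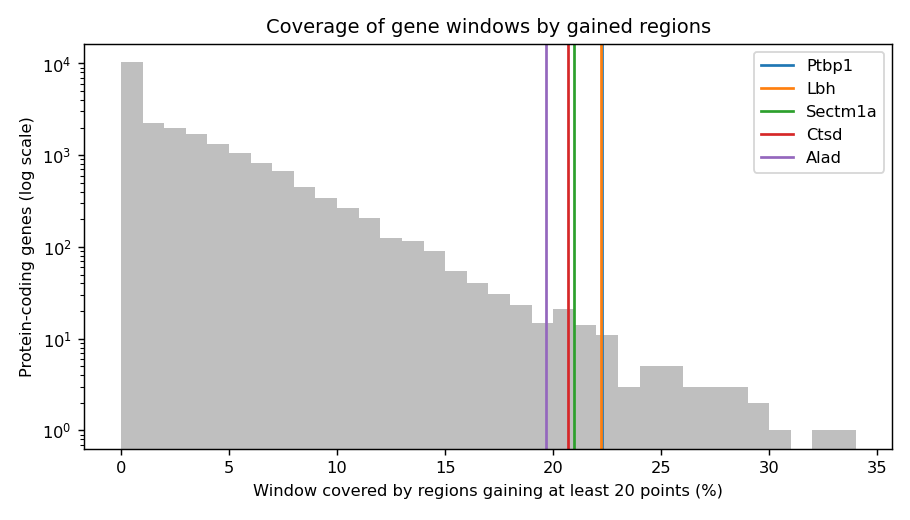
Number of protein-coding genes (log scale) by the share of the window, in percent, that lies in regions gaining at least 20 points, with vertical lines for the 5 genes. The lines lie between 19.7% and 22.3%, far above the median of 1.29%, with 33 genes to the right of Ptbp1.

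Neighbouring genes shared some of these regions. Plppr3, which overlaps 3961 bp of Ptbp1, had 15.3% of its window covered and shared all 5 of its gained regions with the window of Ptbp1, so that regions in the last part of Ptbp1 cannot be assigned to either gene by position. Ifitm10, a member of a family of interferon-induced membrane proteins, had 10.1% and shared 3 of its 7 gained regions with Ctsd. A RefSeq start of Ifitm10 at 142373746, with only 2 CpGs in its promoter, lies in the region that went from 20.3% to 60.2% (authors' deposited table). The other 2 RefSeq starts of Ifitm10, at 142372259 with 32 CpGs and at 142372327 with 28, lie in a region at 142372042 to 142372416 with 2.07% in WT cells and 2.87% in DKO cells (authors' deposited table). On the sides of Alad, Hdhd3 had 6.29% and Pole3, a subunit of DNA polymerase epsilon, 0.544%. Sectm1b, the closest relative of Sectm1a and its neighbour, had 0.149%.

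Genes related by function were covered to very different degrees. Of the 8 other genes of haem synthesis, 7 held a gained region and the median coverage was 3.49%, led by Ppox (12.2%) and Cpox (9.92%), which act late in the pathway. The longest gained region of Ppox, 1729 bp, averaged 43.9% in WT cells and 77.3% in DKO cells (authors' deposited table). The erythroid enzyme Alas2, on the X chromosome, held none. Of 15 other lysosomal proteases, 10 held a gained region, with a median of 1.59% near that of all genes. Ctsb, cathepsin B, had 13.9%, with a region of 2491 bp at 46.5% and 80.9% (authors' deposited table), and Lgmn, legumain, had 7.97%. Ctsk, Ctss, Ctsw, Ctso and Napsa held none.

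Of 23 other splicing regulators, 22 held a gained region and the median was 3.05%, with Hnrnpa1 at 13.0% and Srsf2 at 11.1%. The relatives of Ptbp1 were far lower than Ptbp1 itself, Ptbp3 at 3.36% and Ptbp2, the neuronal form, at 1.62%. Cd7 held no gained region. The 15 other Wnt target genes had the highest median of the 5 lists, 6.39%, and 14 of them held a gained region. Ccnd1, cyclin D1, was covered to 19.4%, with a region of 2869 bp at 51.7% in WT cells and 78.9% in DKO cells (authors' deposited table). Rnf43, a ligase that removes Frizzled receptors, was covered to 12.5%, with a region of 1876 bp at 31.7% and 80.1% (authors' deposited table). Sp5 held none. The list counts are read against the 64.4% of all windows that hold a gained region, and no list was tested.

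**Figure D5:**
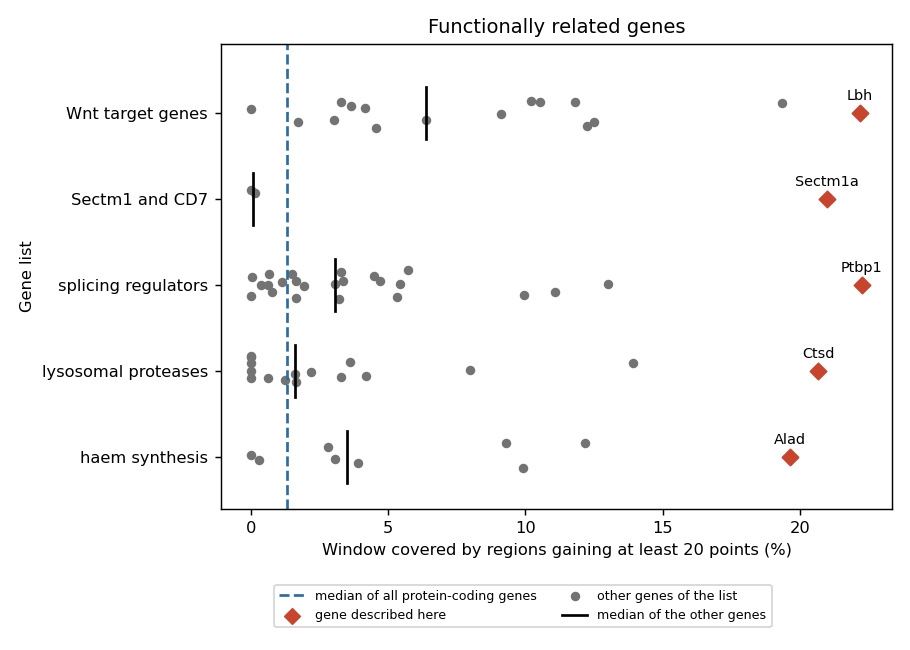
Share of the window, in percent, that lies in regions gaining at least 20 points, for 5 lists of related genes, with a red diamond for the gene described here, grey points for the other genes of its list, a black bar for their median and a dashed line for the median of all protein-coding genes (1.29%). The other Wnt target genes have the highest median, 6.39%, and Ccnd1 at 19.4% is the nearest to its diamond.

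By coverage and by the mean WT and DKO levels of the gained regions together (Euclidean distance over these 3 values, from the means of 2 groups), the gene most like Ctsd was Etv3, which encodes an ETS-family repressor (distance 0.979 points, coverage 20.1%, 8 gained regions). The gene most like Lbh was Krt72 (distance 1.38 points). For Alad it was Tcap (2.17 points), for Sectm1a Ftdc2 (2.33 points) and for Ptbp1 Scand1 (3.56 points, with a single gained region). The windows of Etv3 and Krt72 held 8 and 7 gained regions, while those of Tcap, Ftdc2 and Scand1 held 1 to 3.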

How the data were processed

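Whole-genome bisulfite sequencing was done on 2 WT and 2 DKO libraries of postnatal day 4.5, grouped by title. The submitters' processing notes name Trim Galore, Bismark and the build GRCm38 (mm10). For the region caller and its filters, the tool was not given in the sources used here. Per the file headers, each region has a mean methylation level per group as a fraction, multiplied here to a percentage, and a deposited statistic and spread estimate treated as a score. Depth per sample is unknown. Read-level tests, tests of differences and intervals were not possible.

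Every difference is the DKO mean less the WT mean. Genes were placed with the RefSeq table of GRCm38.p6, which has no strand and no exons. Strand came from RefSeq promoters. Coverage is the share of the gene body plus 5 kb on each side that lies in regions gaining at least 20 points. Window means are weighted by region length. Coverage was tested on simulated data and recovered in 200 of 200 windows at each of 2 flank sizes. The members and lists were chosen with earlier results of these data known. Named genes are the 5 genes, protein-coding genes overlapping a window, the most alike gene of each, the genes next above and below Alad in coverage, and the 2 most covered genes of each list. Others named were chosen after their values were seen. Python 3.11.15, numpy 2.4.6, pandas 2.3.3 and matplotlib 3.10.9 were used.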

Additional observations from a re-analysis of the deposited data

How the results depend on the processing

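Of 30 alternatives for window coverage, 29 stayed within 1.5 times the reported value. The exception was Alad, with 31.2% of the gene body alone. Ptbp1 lay close to the bound on both sides, with 33.4% of the gene body alone and 14.8% with flanks of 10 kb, against 22.3%. Ranks moved more. With the gene body alone they were 94 for Ptbp1, 145 for Lbh, 375 for Sectm1a, 584 for Ctsd (coverage 14.7%) and 105 for Alad. With flanks of 10 kb they were 112, 45, 55, 153 and 93, with a minimum gain of 30 points 50, 32, 124, 96 and 58, and over all settings tried the 5 genes stayed within ranks 20 to 584 of 21883. The number of gained regions moved by more than 1.5 times with a minimum gain of 30 points (4 at Sectm1a and 3 at Ctsd), with at least 10 positions per region (7 at Lbh) and with regions within 500 bp merged (5 at Lbh and 4 at Alad). A minimum gain of 10 points changed no count or coverage of the 5 genes. The number of listed regions at the gene ends moved by more than 1.5 times in 6 of 10 alternatives. These were all 5 genes with 2 kb in place of 1 kb, and Sectm1a with 500 bp. Means were held against the authors' spread estimate. Of 25 alternatives for each, 6 moved by more than this estimate for the mean WT level, 4 for the mean DKO level and 7 for the mean gain. With all listed regions the mean gain was 17.9 points at Ptbp1, 19.3 at Lbh, 25.9 at Sectm1a, 22.7 at Ctsd and 16.9 at Alad, as that choice adds regions that differ little. Unweighted over regions it was 36.8 points at Ctsd and 39.03 at Alad. Counts, coverages and levels cannot change sign, nor can the mean gain of regions chosen for a gain. Only the mean gain over all listed regions could, and it stayed positive at each of the 5 genes. With the gene body alone the median over all genes was 0.142%, that of haem synthesis 0% and that of Sectm1b and Cd7 0.128%. No paired analysis was possible because the table has no values per library, and for the same reason no library could be left out.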
